A study of Mus musculus with 6 samples.

Results

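The genes for the proteins of the cytosolic ribosome were followed in neurosphere cultures, free-floating balls of dividing cells, from 2 sources of neural crest descendants. Members were chosen by name alone, as the Rpl and Rps genes and Rpsa of the array annotation, with the Rps6k kinases left out. The annotation held 76 such genes, of which 48 had a probe set annotated to no other gene. Of these, 46 passed a filter on low values (a deposited log2 value of at least 4 on 3 or more of the 6 arrays) and were tested among 11722 genes. The other 28 genes were found only on probe sets that the annotation gives to several genes, mostly the gene and its pseudogenes. Rpl3l, with values of 2.86 to 3.23, and the probe set belonging to Rps16 alone, with values of 1.88 to 2.23, were too dim to be tested.

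The cultures called rNCSC came from dorsal root ganglia of C57BL/6J embryos at day 12.5 (3 arrays). The submitters describe these cells as reprogrammed by neurosphere culture, with later progeny of the central nervous system. The cultures called pNCSC came from the palate of C57BL/6J adults aged 6 to 8 weeks (3 arrays). Palates of 3 to 5 mice were used, and the labels do not say whether each array had its own mice. Both were grown without serum in DMEM/F12 with bFGF at 20 or 40 ng/ml, EGF at 20 ng/ml, heparin at 0.5 U/ml, N2 at 1% and B27 at 1% or 3%, and were harvested at passage 3. The labels do not say which culture received which level of bFGF or B27, so tissue, age and possibly medium differ together between the groups and cannot be told apart. Separate cultures or animals are not stated for the 3 arrays of each group, and each p-value then covers only how far these arrays scatter, which may be technical. In rNCSC, though, replicate 1 differed from replicates 2 and 3 in sex-linked RNA. Xist read 11.4 against 3.12 and 2.73, and the Y-linked Kdm5d 1.61 against 8.61 and 8.43.

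The cytosolic ribosome joins a small (40S) and a large (60S) subunit, each built of ribosomal RNA and many proteins that are needed in about equal number. The small subunit reads the messenger RNA and the large one joins the amino acids. Because every growing cell needs ribosomes, these messenger RNAs are among the most abundant of dividing cells. Most begin with a cytosine followed by a run of pyrimidines, the terminal oligopyrimidine (TOP) tract, through which mTOR signalling sets their translation. Myc raises ribosome production at several steps. A few ribosomal proteins have a paralogue, a second gene for a similar protein, whose use differs between tissues.

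Start regions of 9 members are shown because the TOP tract is the sequence feature the family is best known for. They cover 60 bases before and 20 bases from the annotated start, in RefSeq's GRCm38.p6 annotation, read along the gene. Rpl13a (chr7:45128726-45128805, minus strand), Rps18 (chr17:33955646-33955725, minus strand), Rplp2 (chr7:141447591-141447670, plus strand) and Rps10 (chr17:27635225-27635304, minus strand) are members with small differences between the cultures. Rpl14 (chr9:120571457-120571536, plus strand), Rps6 (chr4:86857348-86857427, minus strand), Rpl22l1 (chr3:28805448-28805527, plus strand), Rpl7l1 (chr17:46782637-46782716, minus strand) and Rpl39l (chr16:10170168-10170247, plus strand) are members with large ones. Small and large refer to the probe set chosen for each gene. Capitals mark runs of at least 8 letters made only of C and T within 20 bases of the start.
Rpl13a: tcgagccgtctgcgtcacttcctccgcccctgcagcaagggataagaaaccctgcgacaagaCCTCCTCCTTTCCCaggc
Rps18: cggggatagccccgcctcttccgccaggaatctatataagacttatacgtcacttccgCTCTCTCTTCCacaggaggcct
Rplp2: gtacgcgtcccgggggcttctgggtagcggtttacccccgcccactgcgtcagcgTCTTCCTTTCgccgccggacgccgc
Rps10: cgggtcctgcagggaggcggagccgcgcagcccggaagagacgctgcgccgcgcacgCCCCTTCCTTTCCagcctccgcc
Rpl14: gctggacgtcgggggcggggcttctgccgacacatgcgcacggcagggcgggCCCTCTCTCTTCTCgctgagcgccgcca
Rps6: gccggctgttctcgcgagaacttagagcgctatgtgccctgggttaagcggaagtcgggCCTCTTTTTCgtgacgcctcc
Rpl22l1: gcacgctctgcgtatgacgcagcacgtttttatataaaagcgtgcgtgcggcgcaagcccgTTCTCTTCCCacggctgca
Rpl7l1: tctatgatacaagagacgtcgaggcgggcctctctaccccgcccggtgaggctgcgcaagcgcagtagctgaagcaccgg
Rpl39l: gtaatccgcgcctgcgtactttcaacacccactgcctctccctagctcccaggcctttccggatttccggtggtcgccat
The first 7 regions hold such a run, and those of the paralogues Rpl7l1 and Rpl39l do not. Near the start the longest run was 3 letters in Rpl7l1 and 7 in Rpl39l, just short of the cutoff. The cutoff of 8 and the annotated start do not define a TOP tract, so a region without such a run may still hold one. The lack of a run was not particular to paralogues or to large differences. Rplp0, Rps28 and Rps2, the members nearest to 0, had none of that length (longest runs of 7, 4 and 6 letters). A start region of the paralogue Rps27l held such a run. Of the 46 tested members 40 had an entry in the RefSeq promoter table, with 47 start regions between them. A run of at least 8 letters was present in 42.6% of these, against 16% of all 32851 regions in the table. In windows of 300 bases, from 250 before to 50 after the start, the letters CCGGAAG, a core that ETS factors such as Gabpa recognise, were found on either strand in 42.6% of the members' windows and in 8.86% of all windows. The letters AAGATGG, part of the Yy1 site, stood in 14.9% against 6.34%, CACGTG, the E-box that Myc binds, in 10.6% against 7.15%, and TATAAA in 12.8% against 13.6%. Within 20 bases of the start and on the gene's strand, CTTTCC was found in 14.9% against 1.95% and TCTTTC in 10.6% against 1.6%. Both overlap each other and the runs of C and T.

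Most ribosomal protein genes, and above all the bright ones, differed little between the cultures. The median difference, rNCSC minus pNCSC on the log2 scale, was 0.14 over the 46 tested members and 0.12 over all genes tested. The median size of the difference, without its sign, was 0.19 for the members and 0.94 for all genes. Of the members 37 (80.4%) differed by less than 0.5 and 40 by less than 1, compared with 30.6% and 52.1% of all genes tested. In limma's fit over all genes, 11 members were higher in rNCSC and 2 lower at an adjusted p under 0.05, and 33 did not pass. That is 28.3% of the members, against 73.3% of all genes tested (40.2% higher and 33.1% lower). Of the 2 lower genes, Rpl39l was under 4 on every rNCSC array and passed the filter only through pNCSC, so its direction was set by the filter. Rps4l reached 4 on all pNCSC arrays and on 1 rNCSC array. Setting these 2 at the floor of 4 leaves the medians as they are, since both stay among the lowest values and the largest differences. The number of higher members was 7 without rNCSC replicate 2 and likewise 7 without pNCSC replicate 3, and it was 18 with a variance trend.

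**Figure D1:**
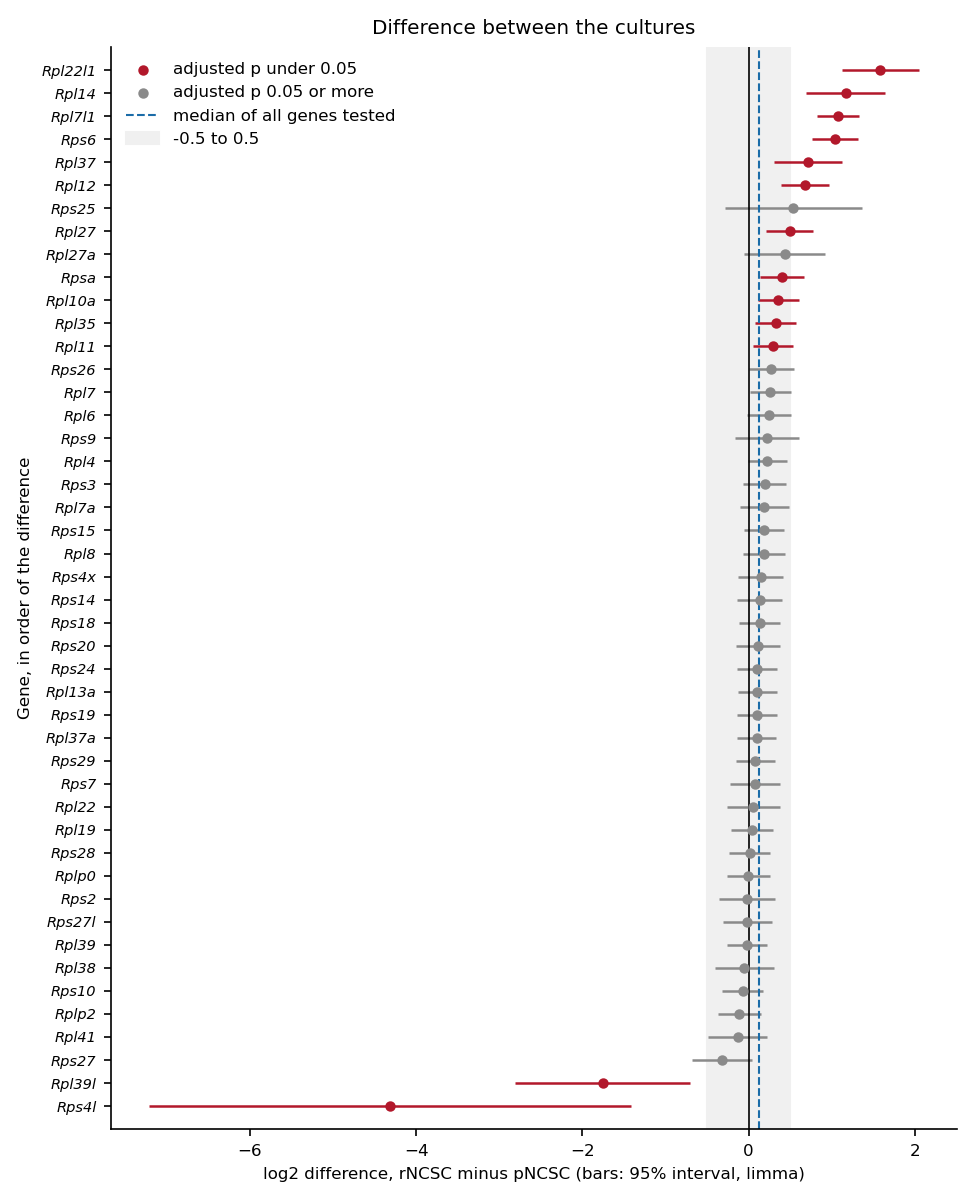
The log2 difference (rNCSC minus pNCSC, horizontal axis) of each of the 46 tested members, with bars for the 95% interval of limma's fit. Most points lie close to 0 and to the dashed median of all genes, and Rpl22l1, Rpl14, Rpl7l1 and Rps6 at the top and Rpl39l and Rps4l at the bottom stand apart.

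The intervals show how tightly the differences were bounded. For 26 members the whole 95% interval lay between -0.5 and 0.5, which held for 9.19% of all genes tested. For 38 members it lay between -1 and 1, against 35.9% of all genes. The 6 arrays separated into groups that do not overlap for 27 members (24 of them with rNCSC higher), against 78.2% of all genes (43.0% with rNCSC higher). In rNCSC the median SD of a member over the 3 arrays was 0.05, and in pNCSC it was 0.10. Of the 46 members, 35 had a difference above 0 and 25 a difference above the median of all genes, so the small excess in rNCSC is about that of the whole array. The deposited values were normalized to nearly the same distribution on every array, which leaves a change shared by most genes invisible.

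**Figure D2:**
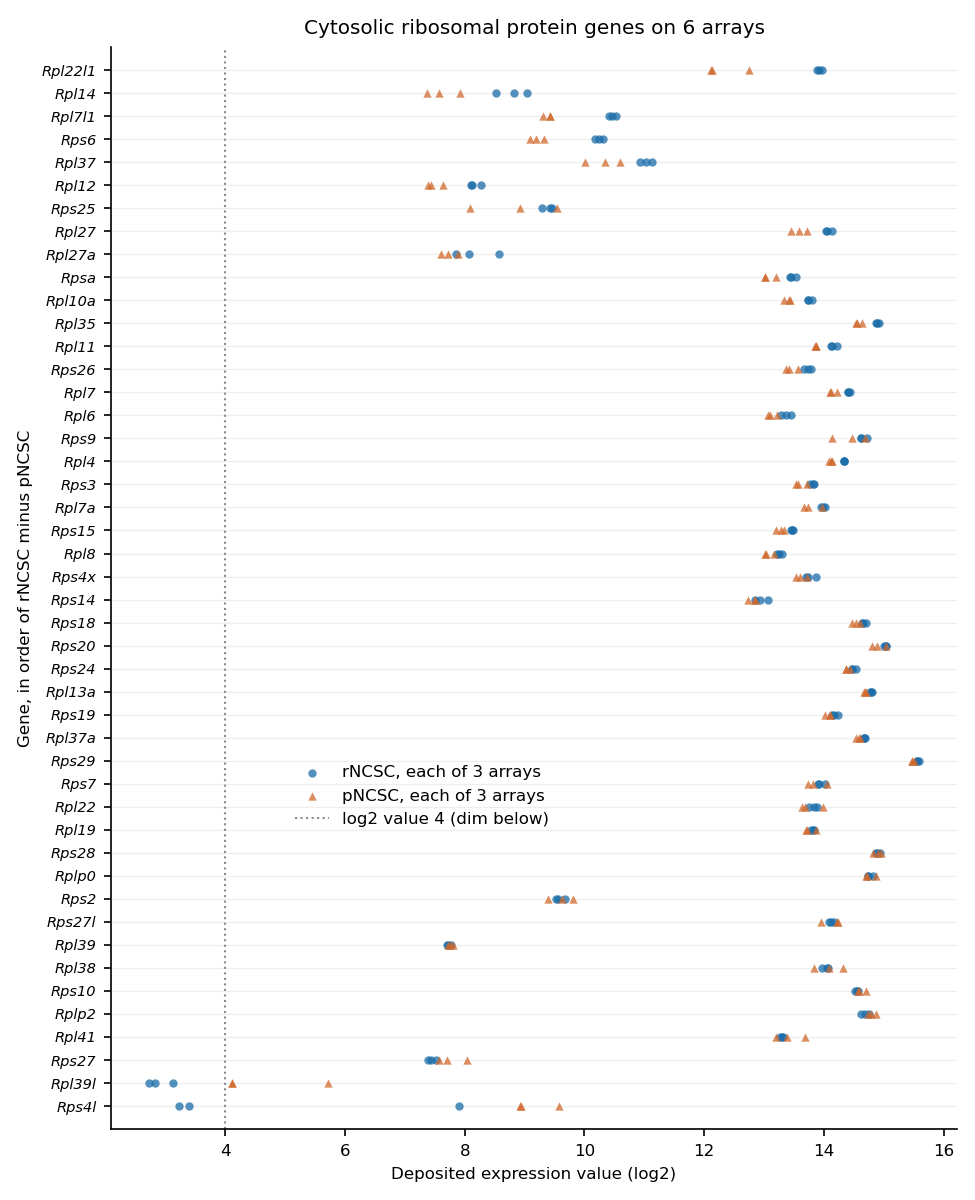
Deposited log2 values of the 46 tested members on each of the 6 arrays (circles rNCSC, triangles pNCSC), in order of the difference. In most members circles and triangles lie within a fraction of a log2 unit, while Rpl22l1 separates at high values and Rps4l shows 1 rNCSC array at 7.90 and the other 2 below 4.

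Brightness was compared because very bright probe sets can be compressed. The 34 members with a mean of at least 12 had a median size of the difference of 0.13, and 33 of them differed by less than 0.5. The 606 other genes with a mean of at least 12 had a median size of 0.51, with 48.3% under 0.5, and 66.7% of them were called. These genes were less bright than the members, with a median mean of 12.7 against 14.0, so brightness was not matched. Of the 34 bright members 6 were higher and 0 lower. The 6 members with a mean of 8 to 12 differed about as much as other genes of that brightness: their median size was 0.88, against 0.84 over 4360 other genes, and 4 were higher (66.7% called against 72.2%). The small differences thus describe the bright members. Apart from Rpl22l1, every member with a difference of at least 1 had a mean under 12.

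**Figure D3:**
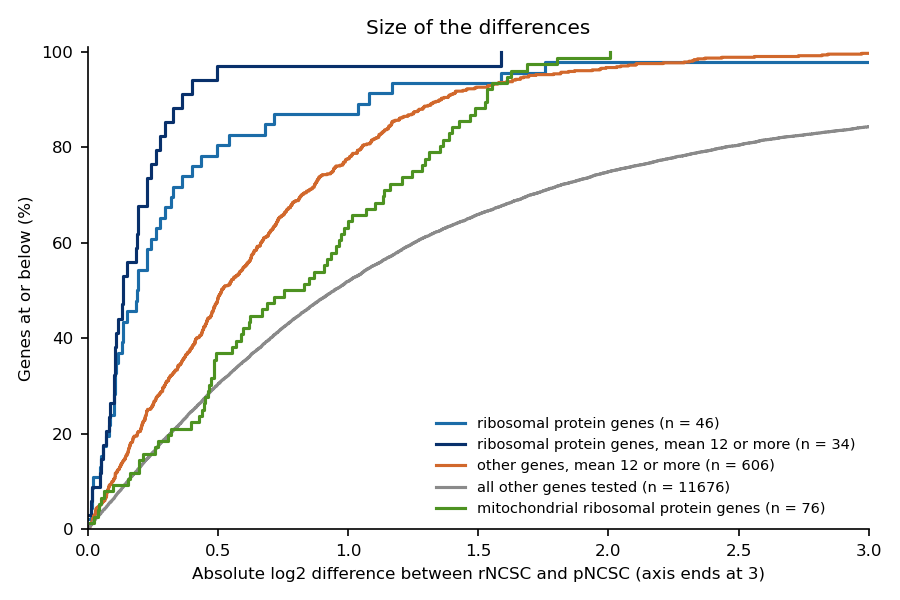
Share of genes (vertical axis, percent) whose difference between the cultures was at or below a given size (horizontal axis, absolute log2 units, ending at 3). The curves of the ribosomal protein genes rise before those of other genes with a mean of at least 12, of all other genes tested and of the 76 mitochondrial ribosomal protein genes. Brightness was not matched between the curves.

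Of 25 large-subunit genes tested, 9 were higher, 1 was lower and 15 did not pass (40.0% called, against 73.3% of all genes tested), with a median difference of 0.23. The subunits were not tested against each other. Rpl22l1, a paralogue of Rpl22, read 13.92, 13.97 and 13.89 on the rNCSC arrays and 12.76, 12.12 and 12.13 on the pNCSC arrays. All rNCSC values lay above all pNCSC values. It was 3.01-fold higher in rNCSC (log2 1.59 ± 0.19 SE, n = 3 per group, adjusted p = 3.1e-04). Its call held under all 16 alternative settings that gave it a value, with a log2 difference of 1.48 to 1.80.

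Rpl7l1, a paralogue of Rpl7 that takes part in assembling the large subunit, read 10.45, 10.41 and 10.52 in rNCSC and 9.42, 9.42 and 9.30 in pNCSC. The groups did not overlap, and the gene was 2.12-fold higher in rNCSC (adjusted p = 1.1e-04). Its 3 probe sets differed by 0.19 to 1.08. Rpl14, a large-subunit protein, read 8.52, 9.04 and 8.82 in rNCSC and 7.92, 7.37 and 7.58 in pNCSC. It was 2.25-fold higher in rNCSC (adjusted p = 0.00159), again without overlap. The 5 probe sets annotated to Rpl14 together with other genes were far brighter, at 13.5 to 14.1, and differed by 0.24 to 0.41. The fold of Rpl14 therefore rests on 1 dim probe set, and on the brightest shared one the difference was 0.39 (adjusted p = 0.0171, with a range of 1.8e-04 to 0.0171 over its alternatives).

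The other large-subunit genes that rose did so by less. Rpl37 was 1.64-fold and Rpl12, a protein at the base of the stalk, 1.60-fold higher (adjusted p = 0.00791 and 0.00206). On the brighter probe sets that Rpl12 and Rpl37 share with other genes, the differences were 0.19 and 0.30 and did not pass (adjusted p = 0.169 and 0.0626, the highest of any alternative for either gene). A second bright probe set shared by Rpl37 differed by 0.03, and a dim one by -0.36, called in the opposite direction (adjusted p = 0.0310). Rpl27 read 14.04, 14.14 and 14.04 in rNCSC and 13.71, 13.45 and 13.58 in pNCSC, and was 1.41-fold higher (adjusted p = 0.00746). On its probe set without a shared ending the difference was 0.26 and did not pass (adjusted p = 0.0588, the highest over its alternatives, the lowest being 8.9e-04). Rpl10a was 1.28-fold and Rpl35 1.25-fold higher (adjusted p = 0.0163 and 0.0233). Rpl11, which with Rpl5 and the smallest ribosomal RNA forms the particle that binds and inhibits Mdm2, read 14.11, 14.23 and 14.13 in rNCSC. In pNCSC it read 13.85, 13.86 and 13.86, so the groups did not overlap. Its difference of 0.30 passed at an adjusted p of 0.0331, and it lost the call in 8 of 16 alternatives, with adjusted p from 0.00152 to 0.103. The calls of Rpl35 and Rpl10a were lost in 6 and 3 of 16 alternatives. Rpl10a, Rpl12, Rpl27, Rpl35 and Rpl37 were named after their values had been seen, so that every call is listed.

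Rpl5 had no probe set of its own. The 3 probe sets annotated to it and to other genes differed by 0.12 to 1.82, with the smallest difference on the brightest, and cannot be given to 1 gene. Rpl7 of the large subunit just missed the threshold with a difference of 0.26 (adjusted p = 0.0520) and no overlap between 14.40 to 14.43 in rNCSC and 14.11 to 14.22 in pNCSC. The stalk, through which the large subunit recruits elongation factors, is formed by Rplp0, Rplp1 and Rplp2. Rplp0 read 14.73, 14.74 and 14.81 in rNCSC and 14.70, 14.86 and 14.72 in pNCSC, overlapping throughout, with a difference of -0.0022 (95% interval -0.26 to 0.25). Rplp2 differed by -0.11 (95% interval -0.36 to 0.15), and the 1 probe set given to Rplp1 and other genes by -0.03.

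Of 21 small-subunit genes tested, 2 were higher, 1 was lower and 18 did not pass (14.3% called, against 73.3% of all genes tested), and the median difference was 0.12. Rpsa, the small-subunit protein also known as the laminin receptor, read 13.44, 13.54 and 13.43 in rNCSC and 13.01, 13.19 and 13.02 in pNCSC. It was 1.32-fold higher without overlap (adjusted p = 0.0151), and it missed the threshold once rNCSC replicate 2 (adjusted p = 0.0503) or pNCSC replicate 3 (adjusted p = 0.0558) was left out, with a lowest adjusted p of 0.00190 over its alternatives. Rps6, whose phosphorylation by S6 kinases is the usual readout of mTOR activity, read 10.24, 10.32 and 10.18 in rNCSC and 9.33, 9.10 and 9.19 in pNCSC. On that probe set it was 2.06-fold higher (adjusted p = 2.0e-04), with no overlap. The other probe set of Rps6 alone, near the filter with means of 4.20 and 4.68, differed the opposite way by -0.47 (adjusted p = 0.0299). The 9 shared probe sets ranged from -0.07 to 0.42 and none passed. Averaging the 2 own probe sets gave 0.28 (adjusted p = 0.0541), and the brightest shared probe set gave 0.19 (adjusted p = 0.166, the highest over its alternatives, the lowest being 2.6e-05), so the direction and call for Rps6 depend on the probe set.

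The members nearest to 0 were Rplp0, Rps28 and Rps2. Rps28 read 14.89, 14.95 and 14.88 in rNCSC and 14.82, 14.95 and 14.90 in pNCSC, a difference of 0.01 (95% interval -0.23 to 0.26). Rps2, near the messenger RNA entry site of the small subunit, differed by -0.01 (95% interval -0.35 to 0.32). In both genes the arrays of the cultures were interleaved. Rps25 had the widest spread of the members without paralogue status, with 8.09, 9.54 and 8.92 in pNCSC against 9.29 to 9.46 in rNCSC, and its difference of 0.54 did not pass (adjusted p = 0.195). On the much brighter probe set it shares with other genes the difference was 0.38 and passed (adjusted p = 0.0146).

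Of the 5 paralogue genes tested, 2 were higher, 2 lower and 1 did not pass, a share called (80.0%) near the 73.3% of all genes tested. Without them, the 41 remaining members held 9 higher and 0 lower calls, and 36 differed by less than 0.5. Rpl22, the partner of Rpl22l1, read 13.75, 13.88 and 13.83 in rNCSC and 13.63, 13.98 and 13.68 in pNCSC, a difference of 0.06 that did not pass (adjusted p = 0.708). A dimmer probe set of Rpl22 differed by 1.38 (adjusted p = 0.00225), and the remaining one by 0.13, which did not pass.

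Rpl39l is a paralogue of Rpl39, a short protein lining the exit tunnel of the large subunit, and is known chiefly from the male germ line. It was under 4 on all rNCSC arrays (2.73, 2.83 and 3.12) and read 5.72, 4.12 and 4.11 in pNCSC. Counting rNCSC as 4, it was at least 1.57-fold higher in pNCSC (adjusted p = 0.00948 from the measured values). Of 3 testis markers 2 were dim on every array and the 1 tested did not pass. Rpl39 itself differed by -0.02 (95% interval -0.26 to 0.22).

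Rps4l, an autosomal relative of the X-linked Rps4x, had the largest difference of the set. It read 8.95, 9.58 and 8.93 in pNCSC, but 7.90, 3.23 and 3.39 in rNCSC. The groups did not overlap, yet rNCSC replicate 1 lay close to pNCSC and far from the other 2 arrays of its group. With values under 4 counted as 4, Rps4l was at least 14.4-fold higher in pNCSC (measured log2 difference -4.31 ± 1.21 SE, adjusted p = 0.0157). Without rNCSC replicate 1 the difference was -5.84 (adjusted p = 1.1e-05). Without rNCSC replicate 3, or without pNCSC replicate 2, it no longer passed (adjusted p = 0.0564 and 0.0520). The same array stood apart in Xist, the RNA of the inactive X chromosome, at 11.4 against 2.73 to 3.12 on the other 5 arrays. It also read 1.61 for the Y-linked Kdm5d, against 6.76 to 8.61 elsewhere. The part of this in the Rps4l values was not tested. Rps4x differed by 0.15 (adjusted p = 0.271), with the lowest rNCSC array below the highest pNCSC array.

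Rps27 and Rps27l, close relatives in the small subunit, did not pass in the fit over all arrays. Rps27l read 14.12, 14.09 and 14.16 in rNCSC and 13.96, 14.24 and 14.22 in pNCSC, a difference of -0.02. Rps27 differed by -0.32 on its own dim probe set (adjusted p = 0.0950), and was called lower with array weights (-0.29, adjusted p = 0.0475) and without pNCSC replicate 1 (-0.42, adjusted p = 0.0372). On the brighter probe set it shares with other genes the sign turned, with a difference of 0.33 (adjusted p = 0.0210, the lowest over its alternatives, the highest being 0.233). Members of the family whose symbols the rule does not take were few: Fau, fused to a ubiquitin-like protein, differed by -0.07 and Rps3a1 by 0.08, and neither passed.

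Across probe sets, large differences lay where signals were low. Counting every probe set annotated to a member, alone or with other genes, 136 had a mean of at least 12, of which 131 differed by less than 0.5 and 1, that of Rpl22l1, by more than 1. Of the 64 dimmer ones that passed the filter, 40 differed by less than 0.5 and 13 by more than 1. Probe sets of Rps9 alone gave 0.23 and 0.24 at values above 13 and 1.94 at a mean of 6.88 (adjusted p = 3.3e-05). Those of Rps20 alone gave 0.12 and 0.10 at values near 15, and 1.05 and 1.00 on its 2 dim probe sets. Those of Rpl13a alone gave 0.10 and 0.05, but 0.77 and 0.53 on the 2 with means of 12.5 (adjusted p = 0.0372 and 0.0195). When shared probe sets were also allowed, 73 members could be tested, and 13 were higher and 2 lower (20.5% called, against 73.2% of all genes tested). Of these members 69 differed by less than 0.5, as did 30.6% of all genes in the main fit. The only members past 1 were then Rpl22l1, Rpl7l1, Rpl39l and Rps4l, all paralogue genes. Rpl39l was past 1 only through rNCSC values under 4. With rNCSC counted as 4 it was 0.65 higher in pNCSC, a direction set by the filter.

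**Figure D4:**
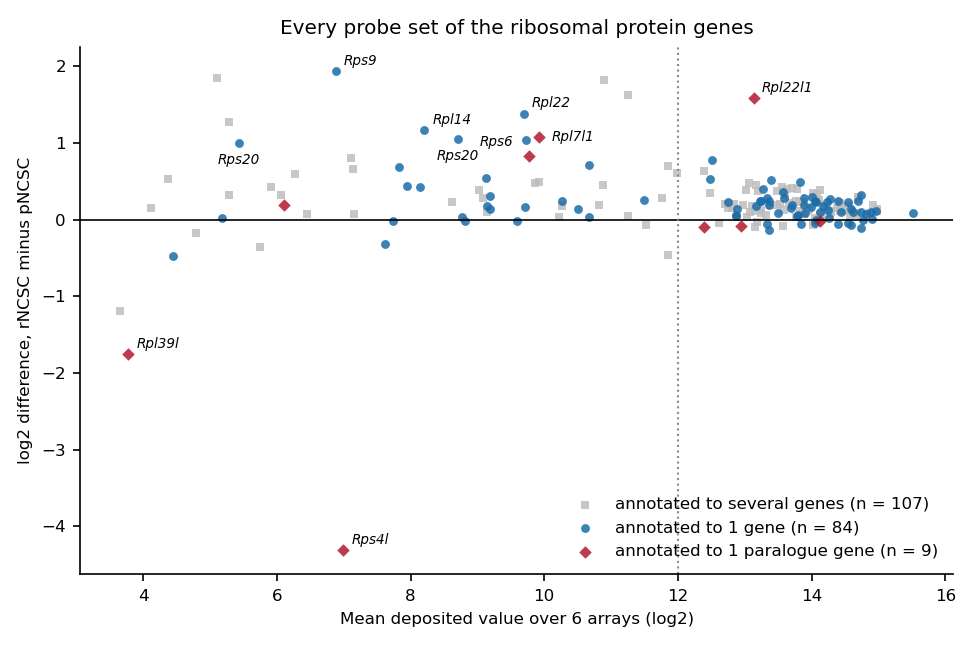
The difference between the cultures (log2, vertical axis) of each probe set that passed the filter, by its mean over the 6 arrays (log2, horizontal axis). To the right of the dotted line at 12 only Rpl22l1 departs by more than 1, and the wide scatter lies at lower means.

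The arrays of a group also differed slightly from each other over the set. In rNCSC replicate 1, 5 of the 46 members lay above their group mean, and in replicates 2 and 3, 29 and 23 did. In pNCSC, 19, 31 and 11 did so. These shifts were small, with medians of -0.03, 0.02 and 0.00 in rNCSC and -0.01, 0.04 and -0.04 in pNCSC. Rpl38, Rpl41 and Rpl22 were highest of all 6 arrays in pNCSC replicate 2, at 14.32, 13.69 and 13.98.

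Of 76 factors that build ribosomes, 49 were higher in rNCSC and 7 lower, with a median difference of 0.66 against 0.12 over all genes. The share called, 73.7%, was that of all genes tested (73.3%, of which 40.2% higher and 33.1% lower). Wdr12, of the PeBoW complex for large-subunit maturation, was 4.23-fold higher (adjusted p = 2.0e-05). Dkc1 and Nhp2, core proteins of the particles that convert uridine to pseudouridine, were 3.85-fold and 3.31-fold higher (adjusted p = 4.0e-05 and 1.8e-05). Riok2, a kinase of late small-subunit maturation, was 2.22-fold lower (adjusted p = 5.4e-04). Sbds, which helps to release Eif6 from the large subunit, and Las1l, which cuts a spacer of the ribosomal precursor RNA, were 1.72-fold and 1.64-fold lower. Of 16 genes of RNA polymerase I and its factors, 9 were higher and 0 lower (56.2% called, against 73.3% of all genes tested), with a median of 0.45. Its subunits Polr1e and Cd3eap were 3.09-fold and 2.31-fold higher, and its initiation factor Rrn3 1.85-fold (adjusted p = 2.9e-05, 4.6e-04 and 9.3e-04).

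Of 49 translation factors tested, 25 were higher and 7 lower (65.3% called, against 73.3% of all genes tested), with a median of 0.33. Eif5a2, a paralogue of the elongation factor Eif5a, was 6.31-fold higher, and Eef2k, the kinase that inhibits Eef2, 4.98-fold. Eif4ebp2, a repressor of cap-dependent translation, was 3.71-fold higher. Eif4e3, a variant cap-binding protein, read 3.41, 3.47 and 3.46 in rNCSC and 8.20, 8.28 and 8.29 in pNCSC, at least 19.1-fold higher in pNCSC (adjusted p = 1.2e-07). It passed the filter only through pNCSC and so had to differ to be tested. Eif1a and Eif5b, which act in start site selection and subunit joining, were 2.85-fold and 1.99-fold lower in rNCSC. Eef2 differed by -0.01 and Eef1a1 by -0.07, and neither passed.

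Of 16 genes outside the ribosome whose messenger RNAs also carry a TOP tract, 9 were higher and 0 lower (56.2% called, against 73.3% of all genes tested), with a median of 0.46. Hnrnpa1, a splicing regulator, was 3.08-fold higher, Nap1l1, a histone chaperone, 3.03-fold, and Npm1, a nucleolar chaperone that is on the biogenesis list too, 1.57-fold. Among 25 regulators of ribosomal protein synthesis, 14 were higher and 4 lower (72.0% called, against 73.3% of all genes tested), with a median of 0.35. Myc read 9.55, 9.18 and 10.06 in rNCSC and 6.12, 6.18 and 6.11 in pNCSC, an 11.0-fold higher level (adjusted p = 1.5e-05). Mycl was under 4 on all pNCSC arrays and at least 10.8-fold higher in rNCSC, and Rps6ka6, an S6 kinase of the RSK family, at least 198-fold (adjusted p = 3.7e-06 and 1.5e-07). Both passed the filter only through rNCSC and so had to differ to be tested. The 4 lower regulators were Mdm2, the p53 ligase that free Rpl11 inhibits, which was 6.55-fold lower (adjusted p = 1.4e-05), Rps6ka3 (1.93-fold), Akt1 (1.59-fold) and Yy1 (1.30-fold). Mtor was 1.55-fold higher (adjusted p = 0.00837), and Gabpa, which binds the CCGGAAG core, rose by 0.69 on the log2 scale (adjusted p = 0.00270). Both were named after their values had been seen.

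Other large complexes were set beside the cytosolic ribosome. Of 76 genes of the mitochondrial ribosome, which translates the messages of the mitochondrial genome, 58 were higher in rNCSC and 0 lower, with a median difference of 0.79. The share called was 76.3%, near the 73.3% of all genes tested (40.2% higher and 33.1% lower). Mrpl11, Mrpl28 and Mrpl36, of its large subunit, were 3.09-fold, 3.22-fold and 2.90-fold higher (adjusted p = 1.4e-05, 1.6e-05 and 1.7e-05). Of 45 proteasome subunit and assembly genes, 21 were higher and 3 lower (53.3% called), with a median of 0.31. The 3 lower were Psme1, an activator subunit, at 1.97-fold (adjusted p = 3.2e-04), and the inducible immune subunits Psmb8 and Psmb9, at least 2.40-fold and at least 1.17-fold lower, which passed the filter only through pNCSC. These sets were not matched for brightness. The median mean was 13.7 for the cytosolic members, 9.66 for the mitochondrial genes and 11.4 for the proteasome genes. The 6 cytosolic members with a mean of 8 to 12 had a median difference of 0.88, so the contrast with the mitochondrial ribosome is not shown at like brightness. The medians and counts of the lists are descriptions, without a test of one list against another.

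**Figure D5:**
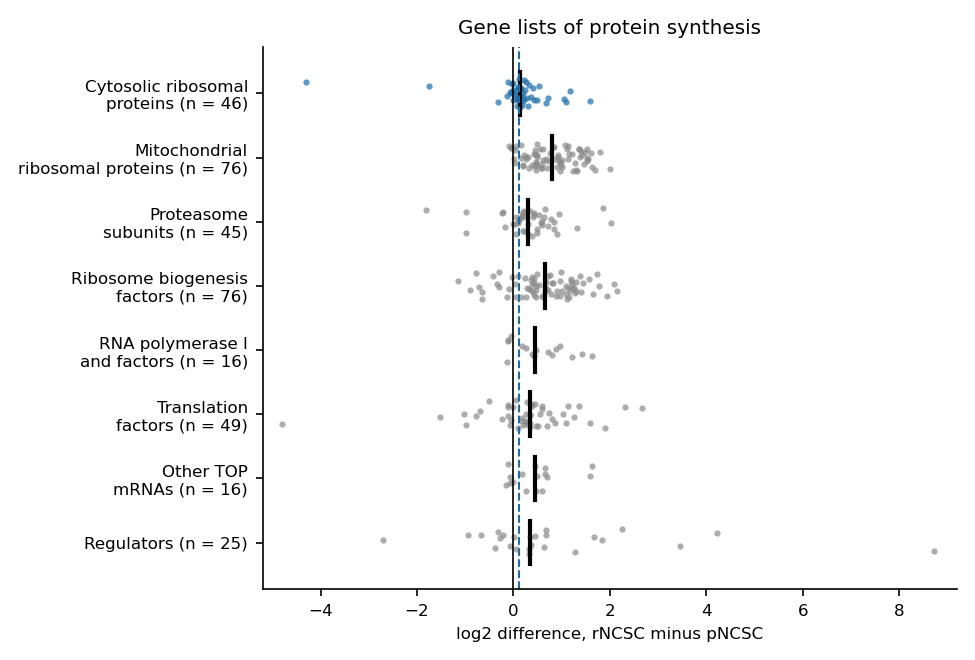
The log2 difference (rNCSC minus pNCSC, horizontal axis) of each tested gene of 8 lists, with a black bar at the median of each list and a dashed line at the median of all genes tested. The cytosolic ribosomal proteins lie closest together around 0.14, and the mitochondrial ribosomal proteins, which are far less bright, lie around 0.79. The lists were not matched for brightness.

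The cultures differed in the cell types that their markers show. All 10 markers of central nervous system progenitors were higher in rNCSC, with a summed level of 15.96 to 16.08 against 9.82 to 10.45 in pNCSC. Of all genes tested, 40.2% were higher in rNCSC and 33.1% lower. All 7 measured markers of neural crest and peripheral glia were lower in rNCSC (6.20 to 6.64 against 10.64 to 11.05), where none was at 4 or more on all arrays. All 8 mesenchyme markers were lower as well (7.11 to 7.89 against 16.03 to 16.31). Of 4 pericyte markers 3 were lower and 0 higher, with a summed level of 6.65 to 8.95 against 14.54 to 14.86. Of 4 epithelial markers tested 3 were lower and 0 higher (6.06 to 6.18 against 8.31 to 9.97). The summed level of the 7 leukocyte markers was 5.81 to 5.88 in rNCSC and 10.20 to 11.63 in pNCSC. No leukocyte marker reached 4 throughout rNCSC, and 3 did so throughout pNCSC. In each of these lists some or many markers reached 4 throughout 1 culture only, so the filter could set their direction. The summed level of mast cell markers ranged in pNCSC from 7.42 to 12.31, led by Cpa3 at 6.45, 10.53 and 11.82, and all 3 endothelial markers were dim everywhere. Since each array is a bulk sample, fewer cells of a type and less RNA per cell cannot be told apart. The part of these differences in cell makeup in the values above was not tested.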

How the data were processed

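Total RNA (500 ng) from neurospheres was labelled and hybridised to Affymetrix mouse arrays, 3 for rNCSC and 3 for pNCSC, per the labels' protocols. The authors deposited 1 value per probe set and array, made with GCRMA (background correction, quantile normalization and summary of probes; no version given), per the submitters' processing notes. That the deposited values are log2 was taken from their range. No depth exists for arrays, and their number, 3 per group, limits precision.

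Of 45101 probe sets, 34958 carried 1 gene symbol in the platform annotation, 932 several and 9211 none. Per gene, the single-symbol probe set with the highest mean was kept (18194 genes), and 6472 genes reaching 4 on fewer than 3 arrays were left out. For the 11722 others the groups were compared in limma (version 3.58.1, R 4.3.3; functions lmFit and eBayes, no covariate). Its two-sided p-values were adjusted by Benjamini-Hochberg over all these genes, and 0.05 was the threshold. With 3 arrays per group, exact permutation could give no p under 0.1. The limma step was tested on simulated data with independent noise and few differing genes. Most genes were called here, so that test does not check these calls. Folds against arrays under 4 count those arrays as 4.

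Named were members past the test with a log2 difference of at least 1, the 3 nearest to 0, paralogue pairs, Rpl5, Rpl11, the stalk proteins, Rpsa, the extremes of each subunit, and up to 3 genes per direction of each list (every one where 5 or fewer are counted). Exceptions are marked as named after their values were seen. Members and lists were chosen with earlier results of these data known. The mitochondrial ribosome and proteasome sets and the search for runs of C and T were added after results were seen. Alternatives covered the filter, the choice of probe set, normalization, eBayes settings, weights per array, a block for the replicate number and leaving out each array. Allowing shared probe sets for members was an alternative chosen after seeing the data. Promoter sequences are from a RefSeq table of GRCm38.p6.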

Additional observations from a re-analysis of the deposited data

How the results depend on the processing

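Counts and medians of the members were recomputed under 17 alternative settings. The number higher in rNCSC, 11 as reported, was 17 with the mean of all probe sets of a gene, 18 with a variance trend, 17 with array weights and 7 when every probe set of a gene had to be called. It was 7 to 11 when each array was left out, with 7 without rNCSC replicate 2 and 7 without pNCSC replicate 3. The number lower, 2 as reported, was 1 with the filter at log2 6, which leaves out Rpl39l, and 1 to 3 when each array was left out. Probe sets without the endings _s_at, _x_at or _a_at gave a median difference of 0.31 and a median size of 0.42. That setting covers 21 members and so is not the same set of genes. With the replicate number as a block, 8 members were higher and 2 lower (69.7% of all genes called). The deviations of same-numbered arrays correlated at 0.04, -0.04 and -0.03, so the numbers gave no sign of pairing the samples, and the labels state no pairing. With shared probe sets allowed, Rps27 reversed to 0.33. Quantile normalization left a median of 0.12 and array centring 0.15, against medians of all genes of 0.11 and 0.13. Of the members named, Rpl14, Rpl22l1 and Rpl7l1 kept their calls under every alternative with 1 value per gene that tested them. The difference of Rpl14 fell to 0.39 with shared probe sets allowed. Rpl39l also kept its call where it was tested, though the filter had set its direction. Of the 3 probe sets of Rpl7l1 the dimmest, at 0.19, did not pass (adjusted p = 0.394). Causes of these changes were not tested. Signal over background limits Rpl39l, Rps4l, Rpl3l and the probe set of Rps16 alone. The 2 bright probe sets that Rps16 shares with other genes, with means of 14.5 and 13.5, differed by 0.11 and 0.21, and neither passed.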
